A study of Mus musculus with 12 samples.

Results

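Ileum RNA of 3 mice given STP1002 at 10 mg/kg was compared with that of 3 control mice across 780 genes. The comparison uses 6 of the 12 libraries of the study, chosen by their labels, and every gene probe was kept, with the negative and positive control probes left out. Treated mice received the compound by mouth once daily for 28 days, and control mice received DMSO by the same route and schedule. The remaining groups were mice given STP1002 at 5 mg/kg, also by mouth, and mice injected with the tankyrase inhibitor G007-LK at 30 mg/kg, with 3 mice each. For every group the 3 mice had been drawn at random from 8. Strain, genotype, sex and age are not given in the sources used here. Each library came from the whole ileum tissue of 1 mouse, so a smaller number of cells of a type and less RNA per cell cannot be told apart.

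STP1002 inhibits tankyrases, enzymes that attach poly(ADP-ribose) to axin and so mark it for degradation. Axin is the scaffold of the complex that destroys beta-catenin, and tankyrase inhibitors are used to lower Wnt signalling, on which the stem cells of the intestinal crypt depend. The ileum also holds a large lymphoid compartment, the Peyer's patches, rich in B cells that present antigen on MHC class II.

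The 6 libraries did not share a common level, which bears on each gene below. Values are the authors' normalized signal, a linear scale proportional to counted reporters. The median signal over the 780 genes was 40.5, 91.6 and 94.0 in control mice 1 to 3 and 77.0, 203.35 and 126.75 in treated mice 1 to 3. Control mouse 1 was the lowest and treated mouse 2 the highest, while treated mouse 1 lay within the range of the controls. Recovered reporter counts summed to 293538, 43922 and 31901 in the control libraries and to 93017, 96703 and 54392 in the treated ones, a 9.20-fold range. Background, set at the mean plus 2 SD of the negative control probes, ranged from 4.33 in control mouse 1 to 40.0 in treated mouse 3, and 593 genes exceeded it in all 6 libraries while 26 exceeded it in none. The epithelial adhesion genes Epcam and Cdh1 were among the 593 genes above background in all 6 libraries. With so many of the 780 genes passing, this does not test the identity of the tissue.

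The median signal of the panel was higher in the treated group. Over all genes the median log2 fold change, treated against control, was 0.69 on the log2(signal + 1) scale, a 1.61-fold shift, and 606 genes (77.7%) had a value above 0. The difference between the library medians was 0.83 on the log2 scale, with a pooled SD of 0.69 between mice of a group and a two-sided exact permutation p of 0.3, where 0.1 is the smallest that 3 against 3 allow. The difference exceeded that SD but did not pass the test. Each fold change below is therefore given with its value relative to the panel shift of 0.69. The direction of small values depends on the scale. That shift describes mid-range signals. The 95th percentile was 9.19, 8.69 and 8.92 in control mice and 8.89, 9.27 and 8.82 in treated mice (log2 scale). The 5th percentile was 2.55, 3.18 and 3.14 against 2.94, 2.76 and 3.10. For genes of very high or low signal, a value relative to the shift can thus overstate a decrease.

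**Figure D1:**
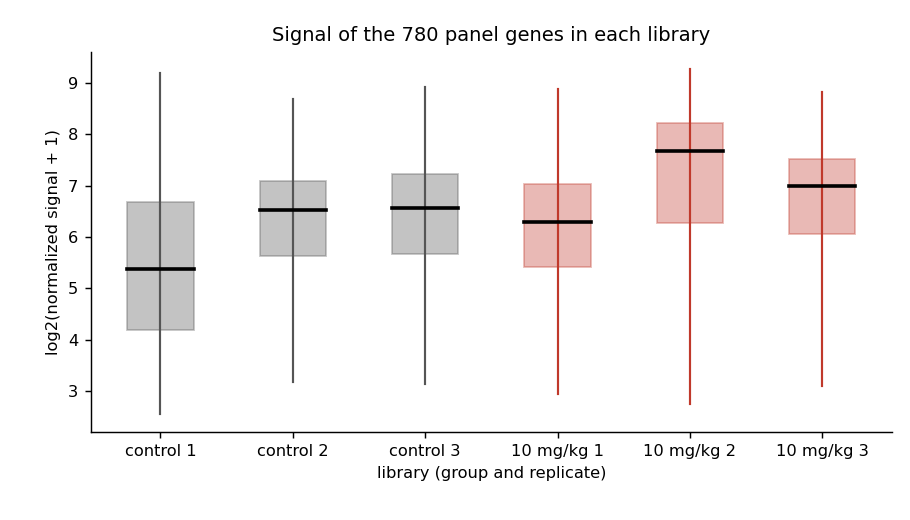
Signal of the 780 genes in each of the 6 libraries, as log2(normalized signal + 1) on the vertical axis. Black lines are medians, boxes run from the 25th to the 75th percentile and whiskers from the 5th to the 95th. Control mouse 1 has the lowest median (5.38) and treated mouse 2 the highest (7.67).

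No gene passed the test. At an adjusted p under 0.05 the number of calls by limma was 0 of 780 (0.0%), and the smallest adjusted p, 0.464, was shared by 399 genes. At an unadjusted p under 0.05 limma gave 36 genes (4.62%), of which 32 (4.1%) were higher and 4 (0.513%) lower after treatment. The groups did not overlap for 95 genes (12.2%), 73 of them (9.36%) higher in all 3 treated mice and 22 (2.82%) lower. When every library was rescaled by its median ratio to the others, which removes the panel shift, 39 genes (5.0%) were higher without overlap and 47 (6.03%) lower, and at an unadjusted p under 0.05 limma gave 6 higher (0.769%) and 36 lower (4.62%). With the replicate number as a block it again called 0 genes, with 243 (31.2%) at an unadjusted p under 0.05. Of these, 226 (29.0%) were higher and 17 (2.18%) lower. The sample titles number the mice and state no pairing, so this fit is an alternative only. On both scales 28 genes were higher without overlap and 17 lower. The count of calls depended on the libraries fitted: limma called Cd22 and H2-Ob (adjusted p = 0.0498 each) when the 2 groups were fitted alone, and 5 genes without the 2 deepest libraries of the study, control mouse 1 and G007-LK mouse 1. The results that follow are values and ranges, none of them a called change.

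The 32 higher genes at an unadjusted p under 0.05 by limma were 4.1% of all 780. They held 4 of the 7 measured B cell markers and 5 of the 15 measured genes of MHC class II and antigen presentation. Cd22, an inhibitory co-receptor of B cells, had a signal of 31.7, 83.5 and 74.4 in control mice and of 564, 261 and 406 in treated mice. Its lowest treated mouse stood well above the highest control mouse. The log2 fold change was 2.72 ± 0.81 (SE), or 2.03 above the panel shift (limma adjusted p = 0.464). These signals rested on 72, 31 and 19 reporter counts in control mice and on 421, 136 and 160 in treated mice. The gene did not follow the order of the library medians, since treated mouse 1, with the lowest median of its group, had its highest signal.

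The other B cell markers were less separated. Spib, a transcription factor of B cells that is also made in plasmacytoid dendritic cells and M cells, measured 18.1, 86.2 and 86.1 in control mice and 138, 246 and 193 in treated mice. The groups did not overlap, but the treated mice stood in the order of their library medians, and the log2 fold change of 1.84 ± 0.70 (SE) was 1.15 above the panel shift. Ms4a1, which encodes CD20, measured 18.1, 105 and 114 in control mice and 96.5, 251 and 149.6 in treated mice. Here the groups overlapped, with a log2 fold change of 1.33 ± 0.81 (SE), or 0.64 above the panel shift. The signal of the Src family kinase Blk, for which a common background floor left no difference between the groups, exceeded background in 1 of the 6 libraries, and that of the kinase Btk in 2 (both act behind the B cell receptor).

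Pou5f1 and Nanog, transcription factors of pluripotent cells that were chosen after their values were seen, had log2 fold changes of 1.29 ± 0.98 (SE) and 1.34 ± 0.94 (SE), or 0.60 and 0.65 above the panel shift. Both exceeded background in all 6 libraries, overlapped between the groups and followed the order of the library medians.

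All 7 measured B cell markers, of 21 in the list, had higher mean log2 signal in treated mice, where 77.7% of all genes did, and all 7 exceeded the panel median. Their median log2 fold change was 1.84 against 0.69 for all genes, and 1.15 after median-ratio rescaling against 0.008 for all genes. In 5 of the 7 the groups did not overlap, where 9.36% of all genes were higher without overlap, and after rescaling this held for 3 of the 7, beside 5.0% of all genes. Their summed signal ranged from 113 to 497 in control mice and from 1166 to 1310 in treated mice, with no overlap. Without control mouse 1 and treated mouse 2, the libraries with the lowest and highest medians, the median of the 7 was 1.18 while that of all genes was 0.07. This omission was chosen after seeing the data. Whether the share of B cells in the tissue or their RNA content differed was not tested.

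The MHC class II genes whose values are given below had the same direction. H2-DMb2 was also measured and overlapped between the groups, and its values are not reported here. H2-Ob, a subunit of the H2-O protein that restrains peptide loading in B cells, measured 30.8, 96.99 and 94.0 in control mice and 450.2, 299 and 553 in treated mice. The treated mice lay clear of the controls, with a log2 fold change of 2.66 ± 0.75 (SE), or 1.97 above the panel shift (limma adjusted p = 0.464). H2-Eb1, the beta chain of the classical I-E molecule, measured 300.0, 412 and 529 in control mice and 1401, 1067 and 1270.0 in treated mice. All treated mice stood above all controls on the deposited scale, with a log2 fold change of 1.62 ± 0.53 (SE), or 0.93 above the panel shift, and the groups overlapped after median-ratio rescaling.

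The I-A chains differed from each other. H2-Aa, the alpha chain, measured 52.9, 53.9 and 66.6 in control mice and 172, 157 and 104 in treated mice, without overlap on the deposited scale but with overlap after rescaling, and its log2 fold change was 1.28 ± 0.59 (SE), or 0.59 above the panel shift. H2-Ab1, the beta chain, measured 186, 113 and 223 in control mice and 678, 173 and 304 in treated mice. Treated mouse 2 fell within the control range, and the log2 fold change was 0.97 ± 0.64 (SE), or 0.28 above the panel shift. H2-DMa and H2-DMb1, whose H2-M protein loads peptides onto class II, had log2 fold changes of 1.55 ± 0.69 (SE) and 1.61 ± 0.79 (SE), or 0.86 and 0.92 above the panel shift, and neither overlapped between the groups.

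The promoters of the 3 genes below are shown because class II genes share a proximal promoter element, the Y box, an inverted CCAAT box that is bound by the factor NF-Y. They are the 250 bases before the annotated start in RefSeq on build GRCm38.p6, printed along the strand of the gene, with the Y box letters in capitals. H2-Ob lies at chr17:34238655-34238904 on the plus strand, H2-Eb1 at chr17:34305617-34305866 on the plus strand and H2-Aa at chr17:34287824-34288073 on the minus strand.
H2-Ob: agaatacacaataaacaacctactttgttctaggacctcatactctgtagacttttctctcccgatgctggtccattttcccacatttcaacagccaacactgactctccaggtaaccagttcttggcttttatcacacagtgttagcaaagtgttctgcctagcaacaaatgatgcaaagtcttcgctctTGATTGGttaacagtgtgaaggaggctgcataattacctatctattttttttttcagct
H2-Eb1: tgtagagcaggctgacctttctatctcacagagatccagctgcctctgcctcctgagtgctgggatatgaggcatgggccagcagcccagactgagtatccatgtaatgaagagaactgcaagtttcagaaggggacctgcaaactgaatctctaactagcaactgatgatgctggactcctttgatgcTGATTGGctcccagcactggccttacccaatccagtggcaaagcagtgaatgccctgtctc
H2-Aa: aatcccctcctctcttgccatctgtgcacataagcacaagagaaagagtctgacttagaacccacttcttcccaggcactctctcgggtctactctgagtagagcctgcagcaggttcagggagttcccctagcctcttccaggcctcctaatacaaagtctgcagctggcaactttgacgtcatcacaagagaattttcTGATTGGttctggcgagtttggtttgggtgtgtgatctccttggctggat

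The letters searched were TGATTGG on both strands. They began 59, 61 and 50 bases before the start of H2-Ob, H2-Eb1 and H2-Aa. Of 7 class II genes looked up, 6 matched an entry and 5 of these held the letters, with H2-DMb1 and H2-DMb2 as the others, and H2-DMa did not hold them. Of all 32851 promoter windows of that length in the table, 2375 (7.23%) held them. A match describes the letters in the window and says nothing of binding in these mice.

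The 4 measured chain genes of MHC class I had log2 fold changes below 0.69. B2m, the light chain of class I, had a log2 fold change of -0.61 ± 0.73 (SE), or -1.30 relative to the panel shift. H2-K1, a classical heavy chain, had 0.47 ± 0.76 (SE), H2-D1 0.24 ± 0.77 (SE) and the non-classical H2-T23 0.53 ± 0.42 (SE), or -0.22, -0.45 and -0.16 relative to it. All 4 overlapped between the groups. Tap2, a subunit of the peptide transporter for class I, measured 313, 256 and 376 in control mice and 450.2, 616 and 1153 in treated mice. Its groups did not overlap on the deposited scale, and its log2 fold change was 1.13 ± 0.53 (SE), or 0.44 above the panel shift. The other subunit, Tap1, had 1.14 ± 0.58 (SE), or 0.45 above it, with overlap. Over all 15 measured genes of antigen presentation, of 21 in the list, 13 were higher and 2 lower, with a median log2 fold change of 1.13 against 0.69 for all genes. After median-ratio rescaling the median was 0.44. On the deposited scale 6 of the 15 were higher without overlap, beside 9.36% of all genes, and after rescaling 3 were higher (all genes 5.0%) and 1 lower (6.03%).

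Some genes with the smallest p act behind antigen receptors, without forming a list that was counted. Pik3cd, the leukocyte catalytic subunit of PI3-kinase, measured 60.8, 124 and 121 in control mice and 199.6, 391 and 297 in treated mice, with a log2 fold change of 1.54 ± 0.51 (SE), or 0.85 above the panel shift. Ptpn6, the phosphatase SHP-1 that inhibitory receptors such as CD22 recruit, measured 26.4, 51.2 and 66.6 in control mice and 129, 175 and 129 in treated mice. Its groups did not overlap, and the log2 fold change was 1.65 ± 0.53 (SE), or 0.96 above the panel shift. Plcg2, the phospholipase behind the B cell receptor, had 1.499 ± 0.61 (SE), or 0.81 above it. The kinases Syk and Lyn, chosen after their values were seen, had 1.18 ± 0.52 (SE) and 1.00 ± 0.63 (SE), or 0.49 and 0.31 above it, and neither overlapped between the groups on either scale.

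At 5 mg/kg, which shares the control mice with the comparison above, 1 mouse stood apart from the other 2. Cd22 measured 726.5, 395 and 55.8 in the 3 mice given 5 mg/kg, and H2-Ob measured 671, 295 and 89.3. Mouse 3 of that dose lay within the control range for both, while mice 1 and 2 lay above it. No gene was called by limma between 10 and 5 mg/kg (0 of 780, 0.0%), and 18 (2.31%) had an unadjusted p under 0.05, 10 (1.28%) higher at the larger dose and 8 (1.03%) lower. The log2 difference of 10 minus 5 mg/kg was 0.63 ± 0.81 (SE) for Cd22, 0.69 ± 0.75 for H2-Ob and -0.03 ± 0.53 for H2-Eb1, beside a median of 0.56 over all genes. For each of the 3 genes the difference was smaller than its SE.

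**Figure D2:**
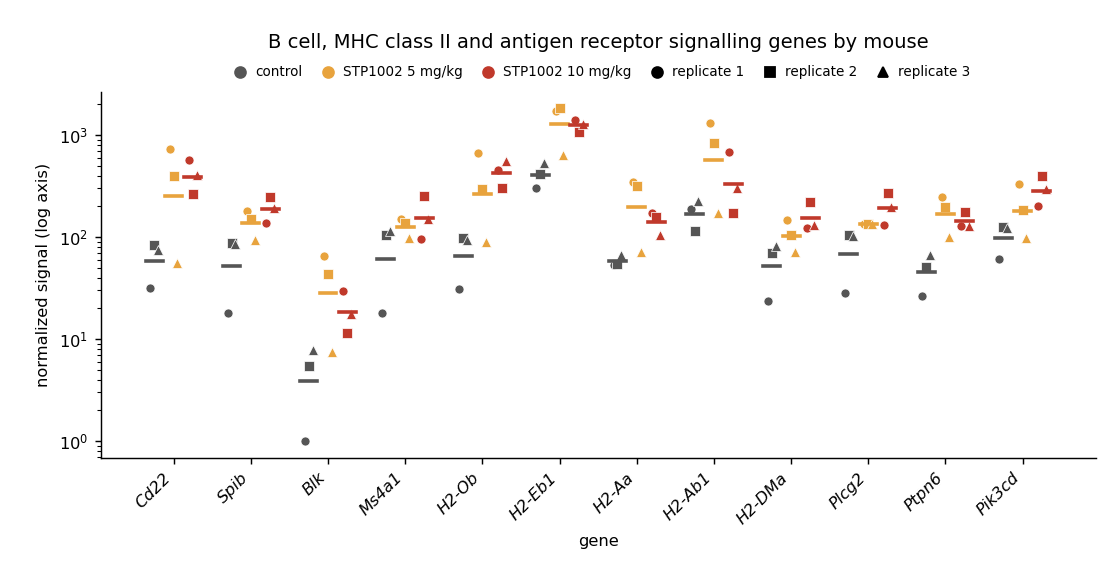
Normalized signal on a log axis for B cell, MHC class II and antigen receptor signalling genes in control mice (grey), STP1002 5 mg/kg (yellow) and 10 mg/kg (red). Each point is 1 mouse, shaped by replicate number, and bars are the means on the log2(signal + 1) scale. For Cd22 and H2-Ob the 3 mice at 10 mg/kg lie above all controls, and mouse 3 at 5 mg/kg lies within the control range.

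Phagocyte genes gave a narrower picture. Ncf1, the organizer subunit of the phagocyte NADPH oxidase, measured 57.3, 164 and 137 in control mice and 331, 395 and 439 in treated mice. The groups did not overlap on either scale, and the log2 fold change was 1.81 ± 0.58 (SE), or 1.12 above the panel shift. The lysosomal protein Cd68 had 1.10 ± 0.56 (SE), or 0.41 above it, with overlap. All 17 measured markers of macrophages and other myeloid cells, of 31 in the list, were higher, with a median log2 fold change of 0.94 against 0.69 for all genes. The median was 0.30 after rescaling. Of the 17, 6 were higher without overlap (all genes 9.36%) and 3 after rescaling (5.0%), and 11 had their treated mice in the order of the library medians, a share near the 65.3% of all genes.

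T and NK cell markers mostly followed that order. Of 29 measured, 26 were higher and 3 lower, with a median log2 fold change of 1.26 against 0.69 for all genes. Only 2 were higher without overlap (all genes 9.36%), and after rescaling 4 were higher (5.0%) and 1 lower (6.03%). In 23 of the 29 the treated mice stood in the order of their library medians, as 509 of all genes (65.3%) did. Without control mouse 1 and treated mouse 2, an omission chosen after seeing the data, the median of this list was 0.09. It stood beside 1.18 for the B cell list and 0.07 for all genes. Cd3e, a chain of the T cell receptor complex, measured 15.4, 99.7 and 74.4 in control mice and 75.03, 301 and 183 in treated mice. Treated mouse 1 lay within the control range, and the log2 fold change of 1.69 ± 0.89 (SE) was 1.00 above the panel shift. The co-receptor Cd4 did not overlap between the groups and had 1.44 ± 0.72 (SE), or 0.75 above it.

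**Figure D3:**
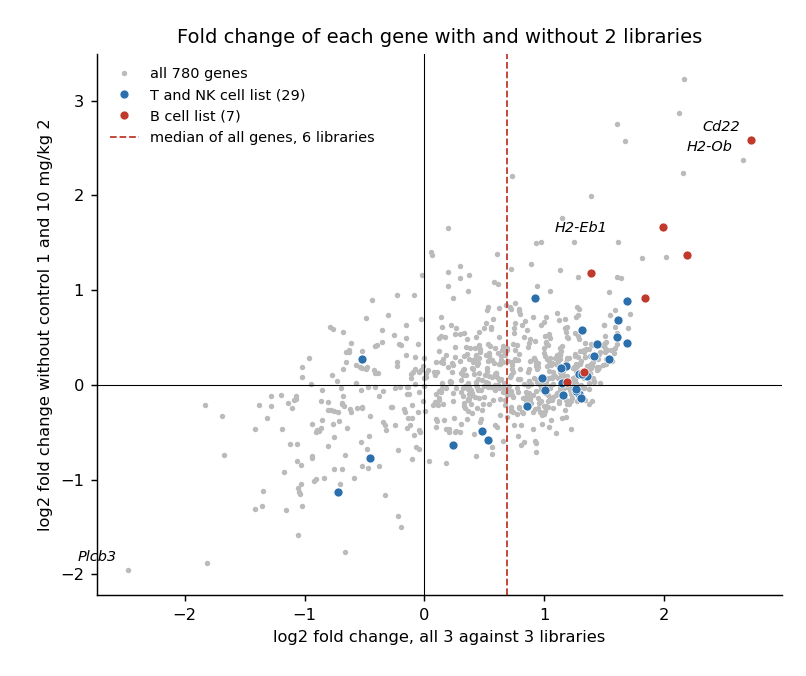
Log2 fold change of each gene, treated against control, with all 6 libraries (horizontal axis) and without control mouse 1 and treated mouse 2 (vertical axis). The omission was chosen after seeing the data. Grey points are all 780 genes, blue the T and NK cell list, red the B cell list, and the dashed line marks the median of 0.69. The T and NK cell genes sit near 0 on the vertical axis (median 0.09), while Cd22 and H2-Ob remain above 2.

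The 15 higher genes of smallest p also held a cytokine and receptors of cytokines. Tnf, the inflammatory cytokine, measured 17.2, 86.2 and 78.3 in control mice and 88.4, 238 and 165 in treated mice. All treated mice exceeded all controls, treated mouse 1 only narrowly, and the log2 fold change was 1.61 ± 0.66 (SE), or 0.91 above the panel shift. Tnfrsf9, the co-stimulatory receptor 4-1BB, had 1.70 ± 0.65 (SE) and Ifngr2, a chain of the interferon gamma receptor, 1.29 ± 0.53 (SE), or 1.01 and 0.60 above the panel shift. Without control mouse 1 and treated mouse 2 the log2 fold changes of these 3 genes were 0.55 for Tnf, 0.60 for Tnfrsf9 and 0.80 for Ifngr2. These 3 genes followed the library order, as did 22 of the 32 higher genes at an unadjusted p under 0.05, a share near the 65.3% of all genes. Whether library level accounts for any of these values was not tested.

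Inflammatory cytokines and NF-kB targets numbered 19, of which 18 were higher and 1 lower, with a median log2 fold change of 0.92. Interferon response genes (8 measured) had a median of 0.80, endothelial genes (8) 0.75, DNA repair genes (12) 0.72 and cell cycle genes (37) 0.69, all beside 0.69 for the panel. PI3K, AKT and mTOR genes (16) had 0.62, MAPK genes (17) 0.50, apoptosis genes (12) 0.36 and TGF-beta and BMP genes (10) 0.35. Lower still were glycolysis and hypoxia genes (13) with 0.20, fibroblast and matrix genes (11) with 0.19, amino acid and lipid metabolism genes (5) with 0.12 and epithelial genes (11) with -0.03. The epithelial list was thus at -0.72 relative to the panel, with 5 members higher and 6 lower. Of the 11, 2 were lower without overlap (all genes 2.82%) and 0 higher (9.36%). After rescaling 4 were lower (6.03%) and 0 higher (5.0%). Without control mouse 1 and treated mouse 2 the median of the epithelial list was -0.06, next to 0.07 for all genes.

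**Figure D4:**
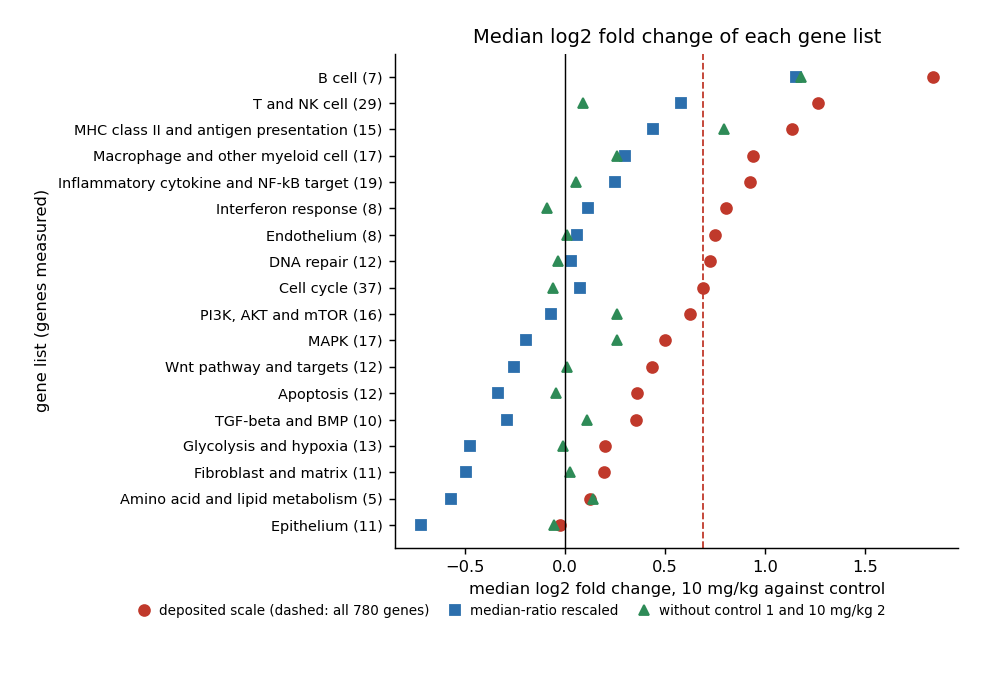
Median log2 fold change, treated against control, of each gene list, with the number of genes measured in brackets. Red circles are the deposited scale, blue squares median-ratio rescaling, green triangles the deposited scale without control mouse 1 and treated mouse 2, and the dashed line is the panel median of 0.69. The omission was chosen after seeing the data. The B cell list is highest on each of the 3 (1.84, 1.15 and 1.18), and the T and NK cell list drops to 0.09 without those 2 libraries.

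As given above, 4 genes were lower at an unadjusted p under 0.05 as deposited, against 36 once the libraries were rescaled. Plcb3, a phospholipase C behind G protein-coupled receptors, measured 491, 625 and 168 in control mice and 192, 42.2 and 35.5 in treated mice. Treated mouse 1 exceeded control mouse 3, and the log2 fold change was -2.47 ± 0.80 (SE), or -3.17 relative to the panel shift (limma adjusted p = 0.464). Only 14 and 22 reporter counts lay behind the values of treated mice 3 and 2, and that of mouse 3 was below its background of 40.0. Itga1, the collagen-binding integrin alpha 1, measured 255, 70.1 and 227 in control mice and 131, 21.1 and 43.1 in treated mice, with overlap and a log2 fold change of -1.67 ± 0.69 (SE), or -2.36 relative to the panel shift. The signal of Itga1 in treated mouse 2 was below the background of 34.0 in that library. Cd38, an NAD-consuming surface enzyme, measured 1248, 294 and 196 in control mice and 311, 36.5 and 137 in treated mice. Control mouse 1 was its highest and treated mouse 2 its lowest, and the log2 fold change of -1.83 ± 0.79 (SE) became -0.22 without those 2 libraries.

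Several lower genes had groups that did not overlap on either scale. Bad, which promotes apoptosis, measured 203, 156 and 188 in control mice and 99.2, 46.0 and 124 in treated mice, a log2 fold change of -1.12 ± 0.57 (SE), or -1.81 relative to the panel shift. Myd88, the adaptor of Toll-like receptors, measured 191, 283 and 208 in control mice and 145, 115 and 98.9 in treated mice. Its highest treated mouse stayed below its lowest control mouse, with a log2 fold change of -0.92 ± 0.49 (SE), or -1.61 relative to the panel shift. Car9, a carbonic anhydrase induced by hypoxia, measured 459, 719 and 787 in control mice and 379, 234 and 327 in treated mice, with -1.05 ± 0.63 (SE), or -1.74 relative to it. Erbb3, an epithelial receptor tyrosine kinase, measured 1774, 1110 and 791 in control mice and 539, 731 and 558 in treated mice, with -0.94 ± 0.62 (SE), or -1.63 relative to it. Both genes were lower in every treated mouse than in any control mouse.

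P4hb, the protein disulfide isomerase of the endoplasmic reticulum, measured 2347, 1010 and 783 in control mice and 706, 777 and 368 in treated mice. Treated mouse 2 came close to control mouse 3 without overlap, the groups overlapped after rescaling, and the log2 fold change was -1.07 ± 0.53 (SE), or -1.76 relative to the panel shift. The transferrin receptor Tfrc had -1.28 ± 0.66 (SE), Oaz1, which restrains polyamine synthesis, -0.90 ± 0.47 (SE), and the hexokinase Hk2 -1.69 ± 0.89 (SE), or -1.97, -1.59 and -2.38 relative to the panel shift, all with overlap. Nuf2 of the kinetochore and the cytokine Il15 lay above background in all 3 control mice and in 1 treated mouse each. Chek2, the checkpoint kinase with the smallest p of all genes, exceeded background in 1 of 6 libraries, so its log2 fold change of -1.82 ± 0.45 (SE), or -2.51 relative to the panel shift, rests on signals near background.

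**Figure D5:**
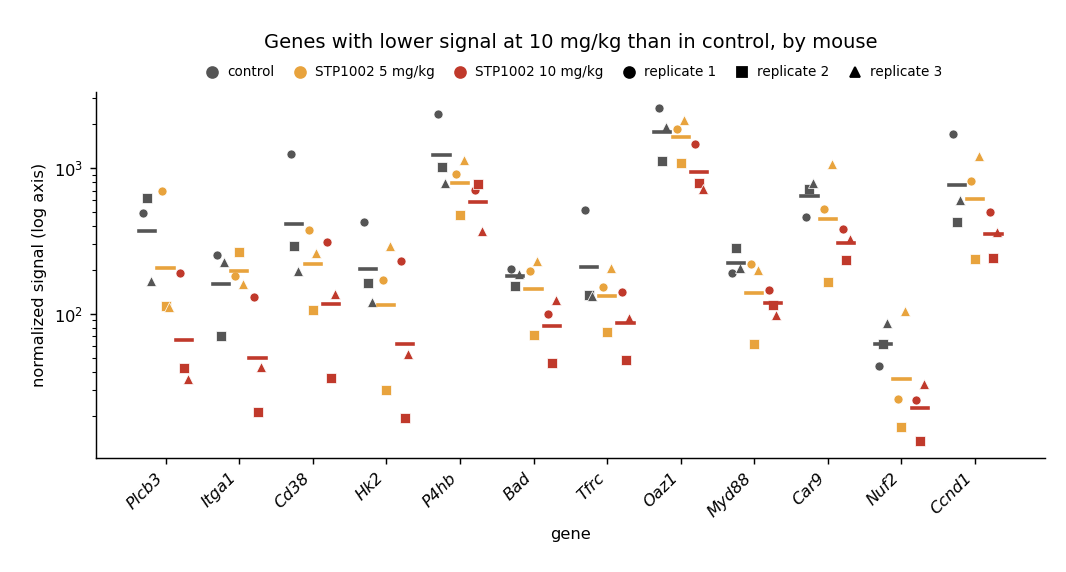
Normalized signal on a log axis for genes with lower signal in mice given STP1002 at 10 mg/kg (red) than in control mice (grey), with 5 mg/kg (yellow) beside them. Each point is 1 mouse, shaped by replicate number, and bars are the means on the log2(signal + 1) scale. For Bad, Myd88, Car9, Nuf2 and P4hb the red points lie below all grey points, while for Cd38 and Ccnd1 control mouse 1 stands far above the other controls.

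Of 64 genes listed for the Wnt pathway and its targets, 12 were measured, and Axin2, Lgr5 and the tankyrases were not analysed here. Limma called 0 of the 12, none had an unadjusted p under 0.05, 8 were higher and 4 lower, and their median log2 fold change was 0.43 against 0.69 for all genes. On the deposited scale 1 was higher without overlap (all genes 9.36%) and 0 lower (2.82%). After rescaling 0 were higher (5.0%) and 1 lower (6.03%). Beta-catenin, Ctnnb1, the transcriptional effector of the pathway, measured 206, 132 and 137 in control mice and 127, 209 and 98.9 in treated mice. The groups overlapped widely, with a log2 fold change of -0.17 ± 0.49 (SE), or -0.86 relative to the panel shift. In the destruction complex, the scaffold Apc had -0.67 ± 0.46 (SE) and the kinase Gsk3b 0.16 ± 0.44 (SE), or -1.36 and -0.53 relative to it. The panel reads transcripts, and whether the amount of axin or beta-catenin protein differed was not tested.

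Among ligand and receptors, Wnt5a had 1.08 ± 0.80 (SE), Fzd1 1.14 ± 0.73, Fzd4 0.52 ± 0.60, Fzd7 0.34 ± 0.47 and Fzd8 0.69 ± 0.73, or 0.39, 0.45, -0.17, -0.35 and 0.00 relative to the panel shift. Fzd4, Fzd7 and Fzd8 turned negative after median-ratio rescaling. The transcription factor Tcf7, also a T cell gene, had 1.34 ± 0.79 (SE), or 0.65 above the panel shift. Of the targets, Ccnd1, the cyclin of G1 phase, measured 1699, 428 and 603 in control mice and 501, 240 and 365 in treated mice. Control mouse 1 stood far above the rest and the groups overlapped, and the log2 fold change was -1.11 ± 0.66 (SE), or -1.80 relative to the panel shift, and -0.25 without control mouse 1 and treated mouse 2. Myc had 0.57 ± 0.47 (SE), or -0.12 relative to the panel shift. Cd44, above background in 2 of the 6 libraries, had -0.02 ± 0.91 (SE), or -0.71 relative to it.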

How the data were processed

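Per the labels' protocols, total RNA from ileum with an RNA integrity number above 7.0 was hybridised to nCounter probes of the Mouse Tumor Signaling 360 panel, with 760 tumour-related and 20 housekeeping genes. The deposited values are a normalized signal on a linear scale, made by the authors. The software and reference genes are not given in the sources used here. Gene values were whole counts times 1 factor per library, as found from the values within a tolerance of 0.0051 for 98.7% of genes or more, and these counts served to state the depth of libraries and of 2 genes and entered no test. Library depth was 31901 to 508829 per library over all 12.

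Limma 3.58.1 in R 4.3.3 was fitted to log2(signal + 1) of 780 genes in 12 libraries, with group means as coefficients, so that the groups share one estimate of spread, and eBayes with a trend. P values are two-sided and were adjusted by the Benjamini-Hochberg method across 780 genes. The procedure was tested on simulated data with independent noise for each gene and no difference in level between libraries. That test therefore does not cover the unequal library levels seen here. Alternatives were other scalings, a pseudocount of 10, a filter, a background floor, fewer libraries, array weights and a replicate block. Deviations from the group means correlated at 0.78, 0.57 and 0.16 between control and treated mice of the same number. Each was above 0.1, the threshold by which the numbers would count as a pairing. Control mouse 3 with treated mouse 2 (0.57) and control mouse 2 with treated mouse 3 (0.38) exceeded the 0.16 of mouse 3. The deviations keep the overall level of each library, so these correlations cannot show a pairing. The main fit used no pairing. The mice are separate animals, and the sample titles number them without stating a pairing. Genes were named by rule: the 15 higher and 10 lower genes with the smallest p, the 10 with the smallest p after rescaling, all measured Wnt genes and up to 4 of each other list. Further B cell, MHC and epithelial list members, and the genes marked so in the text, were named after their values were seen. Genes, lists and the comparison itself were chosen with earlier results of these data known. Symbols matched RefSeq for 775 genes, plus 2 by synonym, and 3 probes for several genes did not match. Some genes that the rule names are not reported here.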

Additional observations from a re-analysis of the deposited data

How the results depend on the processing

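Limma made 0 calls after median-ratio rescaling, quantile normalization, a pseudocount of 10, a filter on low values, a common background floor, or omission of any 1 library. The count was 2 (Cd22 and H2-Ob) in a fit of the 2 groups alone, 5 without the 2 deepest libraries, control mouse 1 and G007-LK mouse 1 (4 higher, among them Cd22, H2-Ob and Ptprc, and 1 lower, Plcb3) and 283 with array weights, for which limma's weights did not converge and treated mouse 3 had a weight of 47.6 against at most 4.93 in any other library. The replicate block gave 0 calls (smallest limma adjusted p 0.133, 243 genes at an unadjusted p under 0.05), so it changed no call. Omitting 1 library left 0 calls and a panel median of 0.37 to 0.95, with 12 genes at an unadjusted p under 0.05 without control mouse 1 and 123 without treated mouse 1. Median-ratio rescaling gave a panel median of 0.008, and 6 higher against 36 lower genes at an unadjusted p under 0.05. An alternative chosen after seeing the data, without control mouse 1 and treated mouse 2, gave 0 calls, 9 genes at an unadjusted p under 0.05 and a panel median of 0.07. Count tests with edgeR and DESeq2 were not run, because a check of whole columns, control probes and floor values included, found whole counts in 6 of the 12 libraries only. Some log2 fold changes of single genes turned their sign, and the cause was not tested. After quantile normalization the value was -0.068 for Brca2, -0.16 for Fzd4, -0.39 for Fzd7, -0.19 for Fzd8, -0.021 for Gpt, -0.44 for Gsk3b, -0.13 for Myc, -0.036 for Slc7a5 and -0.16 for Tgfb3. With a pseudocount of 10 the value was 0.012 for Cd44. Without the 2 deepest libraries the value was 0.56 for Cd44, 0.038 for Ctnnb1 and 0.17 for Slc1a5. With array weights the value was 0.45 for Cd44 and -0.48 for Glul. After median-ratio rescaling the value was -0.17 for Fzd4, -0.35 for Fzd7, -0.0001 for Fzd8, -0.57 for Glul, -0.38 for Gpt, -0.53 for Gsk3b, -0.13 for Myc, -0.083 for Pik3cb and -0.034 for Tgfb3. With 1 library or control mouse 1 and treated mouse 2 omitted the values ranged from -0.25 to 1.56 for Angpt2, -0.19 to 1.40 for Brca2, -0.61 to 1.16 for Cd44, -0.46 to 0.073 for Ctnnb1, -0.082 to 1.63 for Cxcl9, -0.060 to 1.60 for Fzd1, -0.24 to 0.61 for Fzd7, -0.34 to 1.21 for Fzd8, -0.41 to 0.50 for Glul, -0.16 to 1.13 for Gpt, -0.12 to 0.31 for Gsk3b, -0.25 to 0.20 for Slc1a5 and -0.079 to 1.10 for Tgfb3.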

Other observations

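Among all 780 genes, 73 (9.36%) had higher signal in all 3 treated mice than in any control mouse. The 4 given here, regulators of immune and growth signalling, are examples from outside the B cell and class II genes. The checkpoint ligand Cd274, chosen after its values were seen, measured 29.1, 62.0 and 74.4 in control mice and 83.1, 274 and 167 in treated mice, a log2 fold change of 1.59 ± 0.65 (SE), or 0.90 above the panel shift. Ltb, the lymphotoxin chain that organizes lymphoid tissue and also chosen after its values were seen, had 1.72 ± 0.73 (SE), or 1.02 above it. Smad7, which inhibits TGF-beta receptors, had 1.18 ± 0.55 (SE), or 0.49 above it, and Bcl2, which protects from apoptosis, 0.86 ± 0.48 (SE), or 0.17 above it. In all 4 genes the treated mice stood in the order of their library medians, as in 65.3% of all genes. None was called by limma.

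The epithelial list had 5 members higher and 6 lower, and the fibroblast and matrix list 7 higher and 4 lower. Among the lower members, Spint2, an epithelial protease inhibitor, measured 3135, 1425 and 1057 in control mice and 1162, 577 and 1199 in treated mice, a log2 fold change of -0.85 ± 0.64 (SE), or -1.54 relative to the panel shift. Fbn1, the microfibril protein, had -0.61 ± 0.44 (SE) and the basement membrane collagen Col4a1 -0.62 ± 0.54 (SE), or -1.31 each relative to it, while Col6a3, another collagen, had 0.75 ± 0.49 (SE) and the receptor Pdgfrb 0.87 ± 0.58 (SE), or 0.06 and 0.18 above it. These 5 genes overlapped between the groups. Glul, glutamine synthetase, measured 1709.7 in treated mouse 1 and 620 and 517 in the other treated mice, against 956, 474 and 932 in control mice, so 1 mouse set its mean.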
